A study of Rattus norvegicus with 34 samples.

Results

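Glycolysis in the testis runs on enzymes encoded by 2 kinds of gene, and the transcripts of both kinds were followed here in rats fed triazole fungicides. The germ cell forms were Ldhc (lactate dehydrogenase C), Gapdhs (the sperm form of glyceraldehyde-3-phosphate dehydrogenase) and Pgam2 (a phosphoglycerate mutase shared with skeletal muscle). The general forms were Ldha and Ldhb (lactate dehydrogenases A and B), Pgk1 (phosphoglycerate kinase), Pgam1 (the widely expressed phosphoglycerate mutase), Hk1 (hexokinase) and Aldoa (aldolase A). The genes were chosen by name, and a probe set was taken where the platform annotation gave it 1 of these symbols and no other. This found 9 of the 10 genes chosen, of 14217 genes on the array. The scores of the germ cell phosphoglycerate kinase Pgk2 were not analysed here. The 9 genes had 15 probe sets, of which 12 were tested and 3 were control probe sets of Hk1.

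RNA from the testes of male Wistar Han IGS rats was hybridised to Affymetrix GeneChip rat arrays, with 1 array for each animal. Feeding of the fungicides began on gestation day 6 and lasted until postnatal day 92, the age at which the testes were taken. Of 34 labelled arrays, 31 held values. The other 3, which were replicate 01 of Control, replicate 03 of M500 and replicate 01 of T1800, are labelled as not part of the final analysis. The groups were Control (0 ppm, 6 arrays), myclobutanil at 500 ppm (M500, 3 arrays) and 2000 ppm (M2000, 5 arrays), propiconazole at 500 ppm (P500, 4 arrays) and 2500 ppm (P2500, 5 arrays), and triadimefon at 500 ppm (T500, 4 arrays) and 1800 ppm (T1800, 4 arrays). The question addressed was how each compound and dose compared with the untreated diet. The sources used here do not give litters, and littermates would not be independent. The tissue was whole testis, so fewer cells of a type and less RNA per cell cannot be told apart.

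Developing male germ cells replace several glycolytic enzymes by forms encoded by separate genes, which are switched on in meiotic spermatocytes and in haploid spermatids. In sperm these forms are held largely along the flagellum, where glycolysis supplies ATP for movement, and mice lacking Ldhc or Gapdhs have immotile or poorly motile sperm and reduced male fertility. The general forms serve the Sertoli, Leydig and other somatic cells as well as early germ cells, and Sertoli cells pass lactate made with Ldha to the germ cells.

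The promoters of Ldhc and Ldha and of Pgam2 and Pgam1 are shown because each of these pairs sets a germ cell form beside a general form of the same enzyme. Each is the 250 bases before the start of the RefSeq gene on its coding strand, in build GRCr8. Capitals mark matches on either strand to TGACG (a core of sites for CREB and CREM, the latter an activator of many spermatid genes), GGGCGG (the GC box) or ACGTG (a core of E boxes and hypoxia response elements).
Ldhc: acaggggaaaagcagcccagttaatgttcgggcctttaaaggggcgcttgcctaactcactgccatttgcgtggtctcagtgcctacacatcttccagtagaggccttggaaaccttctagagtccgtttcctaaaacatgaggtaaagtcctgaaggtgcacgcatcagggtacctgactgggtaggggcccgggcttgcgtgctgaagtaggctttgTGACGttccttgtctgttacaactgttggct
Ldha: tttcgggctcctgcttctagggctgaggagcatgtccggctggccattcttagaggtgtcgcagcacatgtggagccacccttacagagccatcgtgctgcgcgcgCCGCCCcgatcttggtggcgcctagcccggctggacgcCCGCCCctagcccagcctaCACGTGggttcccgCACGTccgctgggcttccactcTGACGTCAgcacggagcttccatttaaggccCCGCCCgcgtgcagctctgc
Pgam2: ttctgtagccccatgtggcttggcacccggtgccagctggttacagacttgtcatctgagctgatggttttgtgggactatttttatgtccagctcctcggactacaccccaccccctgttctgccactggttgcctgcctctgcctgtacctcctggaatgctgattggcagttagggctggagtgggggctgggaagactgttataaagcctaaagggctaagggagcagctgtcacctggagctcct
Pgam1: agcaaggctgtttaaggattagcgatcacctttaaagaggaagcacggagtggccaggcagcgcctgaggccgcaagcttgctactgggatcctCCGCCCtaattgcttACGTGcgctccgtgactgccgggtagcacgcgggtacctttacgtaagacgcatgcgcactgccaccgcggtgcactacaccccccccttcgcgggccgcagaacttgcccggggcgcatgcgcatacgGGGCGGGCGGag
The Ldhc window lies on the plus strand at chr1:106522745-106522994 and held 1 TGACG match, from 31 to 27 bases before the start. This window lies inside a longer gene model of the annotation. The Ldha window lies nearby on the same strand at chr1:106507842-106508091, and held 2 overlapping TGACG matches, 3 GGGCGG matches and 3 ACGTG matches. The Pgam2 window, on the minus strand at chr14:84897875-84898124, held none of these motifs. The Pgam1 window, on the plus strand at chr1:250672902-250673151, held 3 GGGCGG matches and 1 ACGTG match. Windows not shown did not divide by form. Those of the general form Ldhb and the germ cell form Gapdhs held no match. The window of the germ cell form Pgk2 held 1 GGGCGG match and 2 overlapping ACGTG matches. Hk1 and Aldoa, general forms, each had a window with matches. Of 33469 windows of the same length in the table, 18.2% held TGACG, 30.5% held GGGCGG and 16.6% held ACGTG. A match describes the letters only and says nothing of binding in these animals.

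The values are scores on a log-like scale whose base is not known, quantile normalised here so that every array has the same distribution. Differences are therefore given in score units and not as folds, and since a score depends on the probes as well as on the RNA, scores of different probe sets are not read as relative amounts of RNA. In a limma fit over 31042 probe sets, none of the 12 probe sets of these genes passed an adjusted p of 0.05 in any of the 6 comparisons with Control. The share of all probe sets that passed was 0% for M500, M2000, P500, P2500 and T500 and 0.00644% for T1800. At an unadjusted p under 0.05, 3 of 12 passed for M500, where 9% of all probe sets did. One of 12 passed for T500 (7.62% of all) and 1 of 12 for T1800 (5.84% of all). None did for M2000 (1.7%), P500 (3.36%) or P2500 (4.15%). Over all 12 comparisons made, 9 of 144 tests (6.25%) reached an unadjusted p under 0.05, and the smallest limma adjusted p was 0.348. The moderated F test of any difference among the 7 groups called none of the 12, with 0.00322% of all probe sets called. At an unadjusted p under 0.05 the F test took 1 of the 12, the dimmest Pgk1 probe set, and 5.93% of all probe sets.

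**Figure D1:**
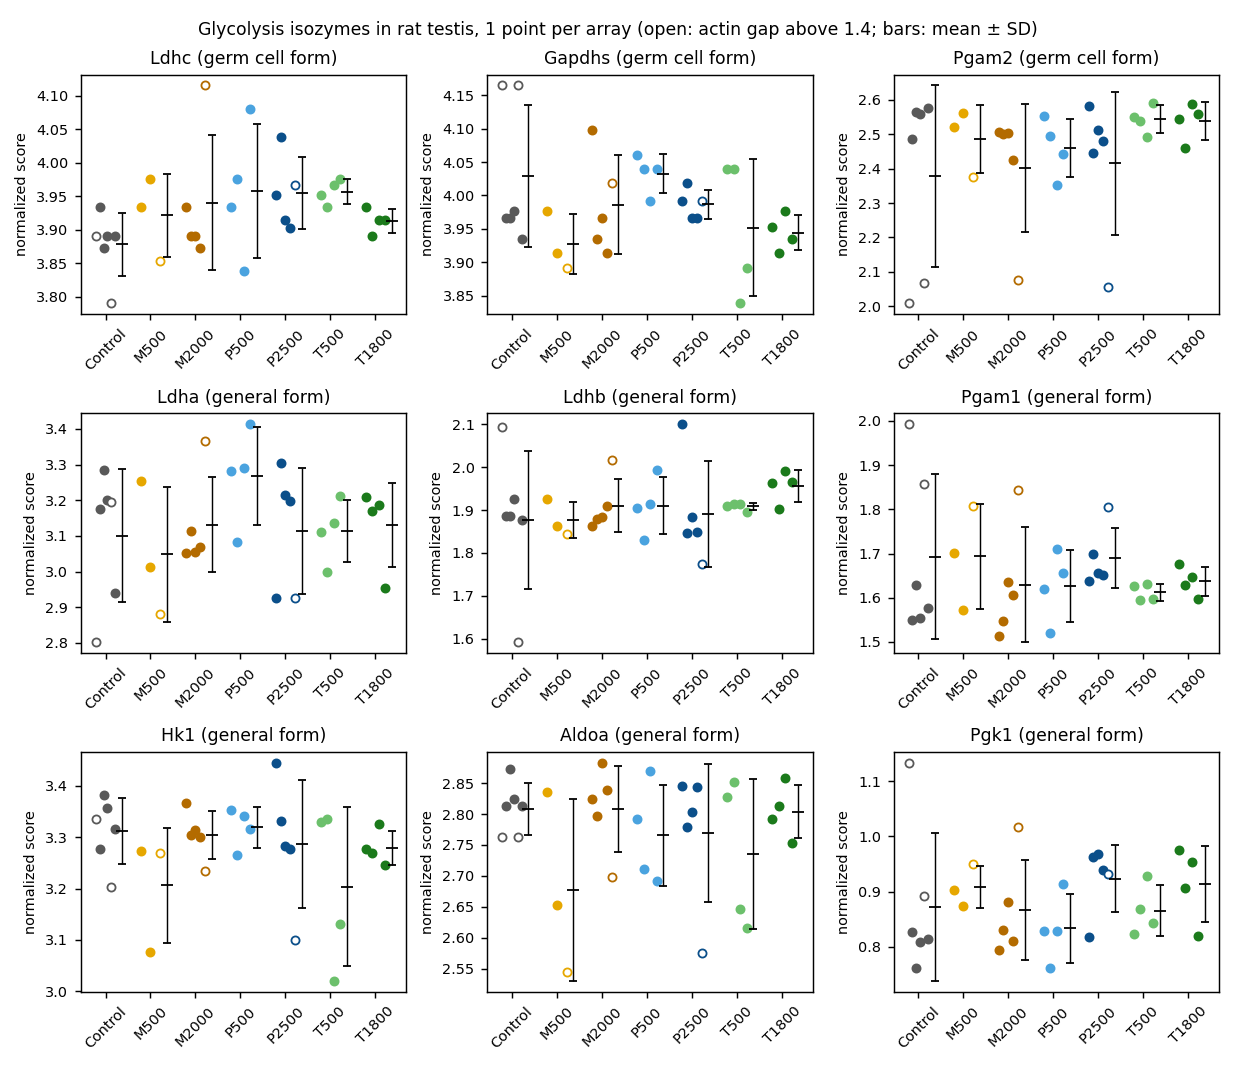
Normalised score of each gene (vertical axis, score units, 1 panel per gene) in each array of the 7 groups, by the probe set of highest mean, with group mean and SD as bars and open points for arrays whose actin gap is above 1.4. Every exposed group overlaps or touches Control in every panel, and the open points of Pgam2 lie between 2.01 and 2.38 while the filled ones lie between 2.35 and 2.59.

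Ldhc converts pyruvate and lactate in spermatocytes, spermatids and sperm. Its probe set 1387216_at scored 3.88 ± 0.0474 (SD, n = 6) in Control, with a lowest value of 3.79, a median of 3.89 and a highest of 3.93. The M500 arrays scored 3.93, 3.98 and 3.85. The M2000 arrays scored 3.93, 3.89, 3.89, 3.87 and 4.12. The first 4 of these lie inside the Control range, and replicate 05 stands above it. The P500 arrays scored 3.93, 3.98, 3.84 and 4.08. The P2500 arrays scored 3.95, 4.04, 3.91, 3.90 and 3.97. Both propiconazole groups overlapped Control, although all 5 P2500 arrays were above the Control mean. The T500 arrays scored 3.95, 3.93, 3.97 and 3.98. The T1800 arrays scored 3.93, 3.89, 3.91 and 3.91. All 8 triadimefon arrays were above the Control mean. The lowest T500 value equalled the highest Control value, and T1800 lay inside the Control range.

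The difference of Ldhc from Control was positive in all 6 groups and passed the test in none. It was 0.0433 (SE 0.0453) in M500, 0.0624 (SE 0.0388) in M2000 and 0.0793 (SE 0.0414) in P500. It was 0.0765 (SE 0.0388) in P2500, 0.0789 (SE 0.0414) in T500 and 0.0351 (SE 0.0414) in T1800. The 95% interval nearest to excluding 0 was that of P2500, from -0.00324 to 0.156, and the limma adjusted p-values ran from 0.664 for T500 upwards. The 6 comparisons share the Control arrays. Replicate 05 of M2000, the array above the Control range, is one of 5 arrays with a large actin gap (the 3′ minus the 5′ beta-actin score, described with Pgam2). Without those 5 arrays the M2000 difference was 0, that of T1800 was 0.0163, and the other 4 ran from 0.0549 to 0.0606. The sign also turned with the scaling, since on the scores as deposited Ldhc was 0.924 (SE 0.465) higher in M500 and lower in the other 5 groups, by as much as -0.431 (SE 0.399) in M2000. On that scale Control replicate 02 scored 6.02, beside 3.48 to 3.84 in the other Control arrays, and M500 replicate 04 scored 6.42. The highest score of any probe set was 8.21 and 8.39 in these 2 arrays. Their part in the deposited differences was not tested.

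Gapdhs makes the glyceraldehyde-3-phosphate dehydrogenase of the sperm flagellum. Its probe set 1369510_at scored 4.03 ± 0.106 (SD, n = 6) in Control, from 3.93 through a median of 3.97 to 4.16. The 2 highest Control values belonged to replicates 02 and 06, which also had large 3′ to 5′ differences of the beta-actin controls. The M500 arrays scored 3.98, 3.91 and 3.89, all below the Control mean and overlapping Control. The M2000 arrays scored 4.10, 3.93, 3.97, 3.91 and 4.02. The P500 arrays scored 4.06, 4.04, 3.99 and 4.04, inside the Control range. The P2500 arrays scored 3.99, 4.02, 3.97, 3.97 and 3.99. None of the 5 was above the Control mean, and all lay inside the Control range. The T500 arrays scored 4.04, 4.04, 3.84 and 3.89, so that 2 lay inside the Control range and 2 below it. The T1800 arrays scored 3.95, 3.91, 3.98 and 3.93, all below the Control mean.

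Gapdhs was lower than Control on average in 5 groups, with no adjusted call. The largest difference was that of M500, -0.101 (SE 0.0488, 95% interval -0.202 to -0.00127), with an unadjusted p of 0.0474 and a limma adjusted p of 0.549. In M2000 the difference was -0.0425 (SE 0.0418) and in P2500 -0.0418 (SE 0.0418). In T500 it was -0.0769 (SE 0.0446) and in T1800 -0.0845 (SE 0.0446, 95% interval -0.176 to 0.00704). P500 differed by 0.00371 (SE 0.0446). Without the 5 arrays of large actin gap, 2 of them the high Control arrays, the M500 difference was -0.0153 and that of P500 0.0717. The difference was then 0.0174 in M2000, 0.0249 in P2500, -0.00895 in T500 and -0.0165 in T1800. As with Ldhc the signs depend on scale, and on the deposited scores Gapdhs was 0.741 (SE 0.50) higher than Control in M500. On that scale M500 replicate 04 scored 6.45 and Control replicate 02 scored 6.39.

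The scores of Ldhc and Gapdhs were near the top of every array, which bears on how finely they can be read. Among 31042 probe sets, Ldhc lay between rank 17 and rank 33 and Gapdhs between rank 11 and rank 33. Quantile normalisation gives each rank the same score on all arrays, so in this range a difference of a few ranks sets the score. The spermatid protamine Prm1 held the top rank throughout and had the same normalised score, 4.66, on every array. The SD within groups was 0.0655 for Ldhc and 0.0708 for Gapdhs, beside a median of 0.0544 over all probe sets. Of the 500 probe sets nearest in mean score, 9.2% had a smaller SD than Ldhc and 14.6% a smaller SD than Gapdhs. Only 0.0838% of all probe sets had a higher mean than Ldhc and 0.0709% a higher mean than Gapdhs. Nearly all of the 500 therefore lay below them, so the comparison is not at a like level. On the deposited scores Ldhc ran from 3.31 to 6.42, and its highest value was in M500 replicate 04, the array whose own maximum of 8.39 was the highest of all.

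**Figure D2:**
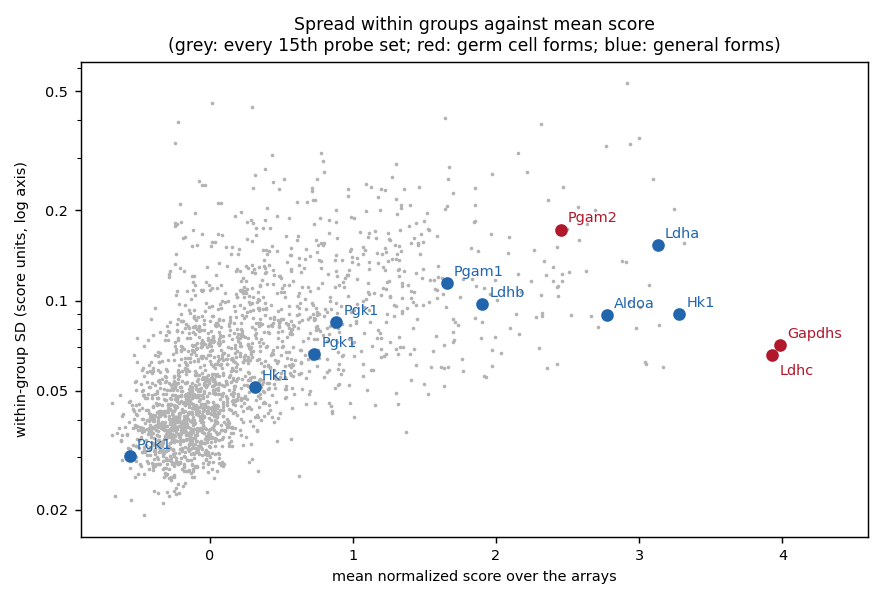
SD within groups (vertical axis, score units, log axis) against mean normalised score (horizontal axis) for the 12 tested probe sets of these genes and for every 15th probe set of the array in grey. Ldhc (0.0655) and Gapdhs (0.0708) have smaller SDs than Pgam2 (0.173) and Ldha (0.153).

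Pgam2 encodes the phosphoglycerate mutase found in spermatids and in skeletal muscle. Its probe set 1367951_at scored 2.38 ± 0.264 (SD, n = 6) in Control. Replicates 02 and 06 scored 2.01 and 2.07, and the other 4 Control arrays scored 2.49, 2.56, 2.56 and 2.58. The Control group thus fell into 2 low and 4 high arrays. The M500 arrays scored 2.52, 2.56 and 2.38. The M2000 arrays scored 2.51, 2.50, 2.50, 2.43 and 2.08. The P500 arrays scored 2.55, 2.49, 2.35 and 2.44. Replicate 05 is the low array of M2000, and no P500 array was as low as the Control pair. The P2500 arrays scored 2.58, 2.45, 2.51, 2.48 and 2.06, with replicate 05 low. The T500 arrays scored 2.55, 2.54, 2.49 and 2.59. The T1800 arrays scored 2.54, 2.46, 2.59 and 2.56, so neither triadimefon group held a low array.

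The difference of Pgam2 from Control ran from 0.0255 (SE 0.0997) in M2000 to 0.166 (SE 0.106, limma adjusted p = 0.690) in T500 and 0.160 (SE 0.106, limma adjusted p = 0.767) in T1800. All 4 T500 and all 4 T1800 arrays were above the Control mean. On the deposited scores the Pgam2 difference was below 0 in M2000, P500 and P2500. Without the 5 arrays whose actin gap was above 1.4, the difference was -0.00296 in T500 and -0.00865 in T1800. Skeletal muscle is the other known source of Pgam2. All 8 striated muscle genes listed were measured, their mean score per array ran from -0.0755 to 0.120 over the groups, and the muscle creatine kinase gene Ckm reached at most -0.0289. Only Myh1 (0.622 to 1.46) and Actn3 (0.215 to 0.369) were above 0 on every array. On this scale 0 is about the median probe set of an array. The part of muscle in the Pgam2 values was not tested.

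**Figure D3:**
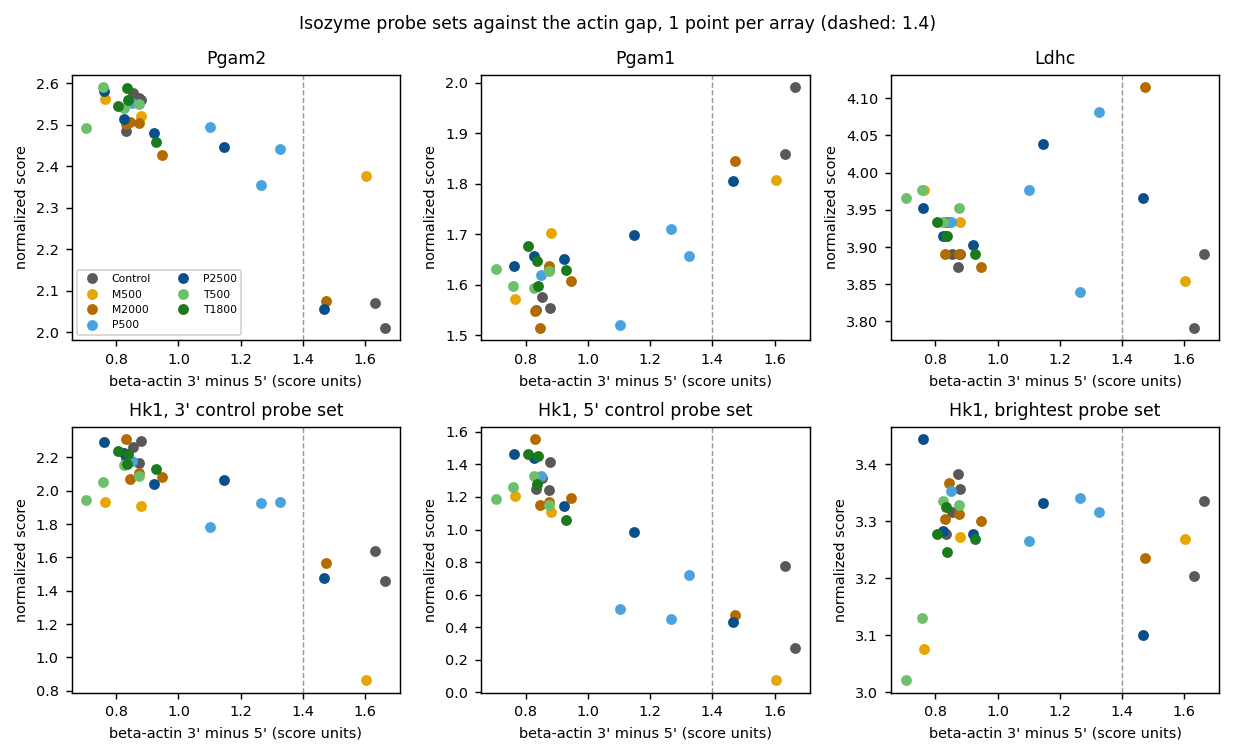
Normalised score (vertical axes, score units) of Pgam2, Pgam1, Ldhc and 3 probe sets of Hk1 against the actin gap of each array, the 3′ minus the 5′ beta-actin control score (horizontal axes, score units), with points coloured by group. In the 5 arrays above 1.4, Pgam2 scored 2.01 to 2.38 and Pgam1 1.81 to 1.99, beside 2.35 to 2.59 and 1.51 to 1.71 in the other 26, while Ldhc lay on both sides of them.

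The actin gap is larger where the 5′ signal of the beta-actin transcript is weaker relative to its 3′ signal in an array. It was above 1.4 in 5 arrays and lower in the other 26. Replicates 02 and 06 of Control had gaps of 1.67 and 1.63, replicate 04 of M500 had 1.60, and replicate 05 had 1.47 in both M2000 and P2500. No P500 or triadimefon array was above 1.4, and the group means ran from 0.790 in T500 to 1.14 in P500. The gap was graded, with 1.10, 1.27 and 1.33 in P500 replicates 02, 03 and 04 and 1.15 in P2500 replicate 02. These arrays stay in the values given without the 5. A slope on the gap was fitted beside the group means after the values had been seen. The slope of Pgam2 was -0.540 per unit of gap (SE 0.0485, limma adjusted p = 3.6e-10). That of Pgam1 was 0.343 (SE 0.0384, limma adjusted p = 1.9e-08). The brightest Pgk1 probe set had a slope of 0.187 (SE 0.0445, limma adjusted p = 0.000755). Gapdhs had a slope of 0.109 (SE 0.0434, limma adjusted p = 0.0343) and Aldoa one of -0.162 (SE 0.0513, limma adjusted p = 0.00859). That of Ldhc was 0.0130 (SE 0.0447, limma adjusted p = 0.822). In all, 5 of 12 probe sets passed (41.7%), beside 57.1% of all probe sets. Without the 5 arrays only Pgam2 passed among the 12, with a slope of -0.311 (SE 0.0796, limma adjusted p = 0.0104), beside 14.9% of all probe sets. The group differences were also fitted with the gap as a covariate, and none of the 12 probe sets was called. The differences from that fit are not given here. The part of the gap in the group differences was not tested beyond this and the values given without these arrays.

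The general forms gave the same count of 0 adjusted calls. Ldha makes the lactate dehydrogenase that favours lactate production. Its probe set 1367586_at scored 3.10 ± 0.186 (SD, n = 6) in Control, from 2.80 through a median of 3.19 to 3.29. The P500 arrays scored 3.28, 3.08, 3.29 and 3.41. Of these, 3 were above the Control mean, and the difference was 0.167 (SE 0.0942, 95% interval -0.0261 to 0.361, unadjusted p = 0.0871 and limma adjusted p = 1). The P2500 arrays scored 2.92, 3.30, 3.21, 3.20 and 2.93. They split into replicates 02, 03 and 04, which were high, and replicates 01 and 05. Markers of liver stood out in the 3 high arrays of P2500. Over the 7 liver genes measured of 8 listed, the mean score was 1.85, 1.81 and 1.79 in these arrays, -0.0989 and -0.135 in the other P2500 arrays, and -0.0902 to 0.370 in Control. The Ldha difference of P2500 from Control was 0.0132 (SE 0.0884), and without the 3 arrays it was -0.174. Their part in the Ldha values was not tested. In the other 4 groups the Ldha difference lay between -0.0511 and 0.0313.

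Ldhb, the lactate dehydrogenase that favours pyruvate production, scored 1.88 ± 0.161 (SD, n = 6) in Control with its probe set 1370218_at. Its lowest Control value was 1.59 and its highest 2.09, both in arrays of large actin gap. The differences from Control ran from 0.000538 (SE 0.0664) in M500 to 0.0793 (SE 0.0606) in T1800. The T1800 arrays scored 1.96, 1.90, 1.99 and 1.97, all above the Control mean and inside the Control range. The T500 arrays scored 1.91, 1.91, 1.92 and 1.90.

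Pgk1, the general phosphoglycerate kinase, had 3 probe sets that did not move together. The brightest, 1388318_at, scored 0.873 ± 0.134 (SD, n = 6) in Control. Its differences ran from -0.0396 (SE 0.0530) in P500 to 0.0506 (SE 0.0497) in P2500. The dimmest, 1368906_at, lay near the bottom of the array, with 99.1% of probe sets at a higher mean. Its Control arrays ran from -0.615 through a median of -0.563 to -0.525. The M500 arrays scored -0.648, -0.622 and -0.627, all below the lowest Control array. This was the one probe set of 12 that did not overlap Control in M500, beside 2.01% of all probe sets. Its difference was -0.0659 (SE 0.0231, unadjusted p = 0.00822), the smallest limma adjusted p of all comparisons of these genes at 0.348. The T1800 arrays of the same probe set scored -0.532, -0.537, -0.452 and -0.511, for a difference of 0.0585 (SE 0.0211, unadjusted p = 0.00995 and limma adjusted p = 0.767). The remaining Pgk1 probe set, 1387361_s_at, scored 0.753, 0.765, 0.851 and 0.759 in T500, against 0.602 to 0.727 in Control. It was the one of 12 that did not overlap Control in T500, where 1.22% of all probe sets did not, and its difference was 0.0975 (SE 0.0417, unadjusted p = 0.0272 and limma adjusted p = 0.628). The brightest probe set differed by -0.00723 (SE 0.0530) in the same comparison. In the other exposed groups each of the 12 probe sets overlapped Control, beside 0.155% of all probe sets without overlap in M2000, 0.677% in P500, 0.274% in P2500 and 1.94% in T1800.

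Pgam1, the general phosphoglycerate mutase, scored 1.69 ± 0.187 (SD, n = 6) in Control with probe set 1386864_at. Control replicates 02 and 06 scored 1.99 and 1.86, and the other 4 scored 1.55, 1.63, 1.55 and 1.58. These are the arrays in which Pgam2 was low. Over all groups, Pgam1 lay between 1.81 and 1.99 in the 5 arrays of large actin gap and between 1.51 and 1.71 in the other 26. The differences from Control ran from -0.0812 (SE 0.0707) in T500 to 0.000502 (SE 0.0774) in M500.

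Hk1, which phosphorylates glucose and has a germ cell transcript of its own, was represented by probe set 1386929_at. It scored 3.31 ± 0.0639 (SD, n = 6) in Control, from 3.20 through a median of 3.33 to 3.38. The T500 arrays scored 3.33, 3.33, 3.02 and 3.13. Replicates 03 and 04 were below every Control array, and the difference was -0.108 (SE 0.0562, unadjusted p = 0.0659 and limma adjusted p = 0.664). The M500 arrays scored 3.27, 3.08 and 3.27, a difference of -0.105 (SE 0.0616). The dimmer probe set 1398725_at differed from Control by -0.0448 (SE 0.0362) to -0.00208 (SE 0.0310) over the 6 groups.

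The 3 control probe sets of Hk1 read the 3′ end, the middle and the 5′ end of the transcript. The 3′ one scored 0.861 to 1.64 in the 5 arrays of large actin gap and 1.78 to 2.31 in the other 26, with no overlap. The 5′ one scored 0.0733 to 0.773 and 0.449 to 1.56. The 3′ minus the 5′ score of Hk1 ran from 0.788 to 1.18 in the 5 arrays and from 0.728 to 1.48 in the other 26. This Hk1 gap thus overlapped between them, while the actin gap could not, since it was used to split the arrays. The 3′ minus the 5′ score of the Gapdh control probe sets did not overlap. It ran from 0.644 to 0.986 in the 5 arrays and from 0.156 to 0.549 in the other 26. Probe set 1386929_at scored 3.10 to 3.33 and 3.02 to 3.44, and so did not separate these arrays. For the 3′ probe set, the largest difference from Control was that of M500, -0.435 (SE 0.205, limma adjusted p = 0.537). That p came from a further fit that included the control probe sets. The M500 arrays scored 1.91 and 1.93, and 0.861 in replicate 04, an array of large actin gap.

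Aldoa splits fructose-1,6-bisphosphate and is expressed in germ cells and muscle. Its probe set 1367617_at scored 2.81 ± 0.0421 (SD, n = 6) in Control, from 2.76 through a median of 2.81 to 2.87. The M500 arrays scored 2.84, 2.65 and 2.54, of which 2 were below all Control arrays. The difference was -0.131 (SE 0.0609, 95% interval -0.256 to -0.00576, unadjusted p = 0.0410 and limma adjusted p = 0.527). The lowest M500 value belonged to replicate 04, an array of large actin gap. The other differences ran from -0.0725 (SE 0.0556) in T500 to -0.00425 (SE 0.0556) in T1800, and the M2000 mean equalled the Control mean to 3 digits.

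**Figure D4:**
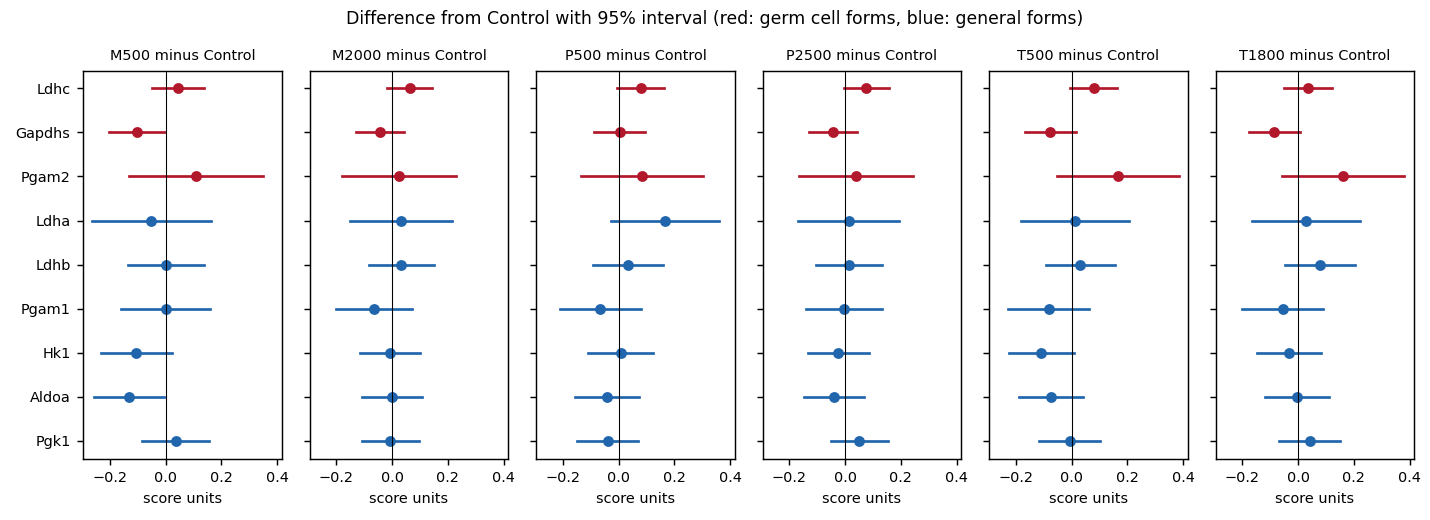
Difference of each exposed group from Control (horizontal axes, score units) with its 95% interval, for each gene by its probe set of highest mean. Ldhc differences lie between 0.0351 and 0.0793 on this scale (5 of the 6 are below 0 on the deposited scores), and the Pgam2 and Ldha intervals are the widest.

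The 3 compounds were compared at their matched dose of 500 ppm, as 3 pairs over all 31042 probe sets. All 3 carry a triazole ring. None of the 12 probe sets passed in any pair, and 0% of all probe sets did. At an unadjusted p under 0.05, 1 of 12 passed between M500 and P500 (7.48% of all), 1 of 12 between M500 and T500 (6.69% of all) and none between P500 and T500 (5.08% of all). Both were the dimmest Pgk1 probe set, 1368906_at, which was lower in M500 than in P500 by -0.0591 (unadjusted p = 0.0253 and limma adjusted p = 0.60). It was lower than in T500 by -0.0964 (unadjusted p = 0.000646 and limma adjusted p = 0.619), the smallest unadjusted p of the 144 tests. Neither pair of groups overlapped, but the share of all probe sets without overlap was not counted for these pairs. For Ldhc the difference between P500 and T500 was 0.00038 (95% interval -0.0927 to 0.0935). M500 was below P500 by -0.0360 (95% interval -0.137 to 0.0646) and below T500 by -0.0356 (95% interval -0.136 to 0.0650). For Gapdhs, M500 differed from P500 by -0.105 (95% interval -0.213 to 0.00305, unadjusted p = 0.0563 and limma adjusted p = 0.690), and these groups did not overlap either. P500 differed from T500 by 0.0806 (95% interval -0.0196 to 0.181) in the same gene. For Ldha, M500 differed from P500 by -0.218 (95% interval -0.447 to 0.0104, limma adjusted p = 0.702). For Pgam2 all 3 intervals were wide, from -0.233 to 0.284 between M500 and P500 and from -0.316 to 0.201 between M500 and T500. These intervals leave room for differences larger than those measured, so the compounds were not shown to act alike.

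The high doses of 2000, 2500 and 1800 ppm differ between compounds and were compared only with 500 ppm of the same compound. No probe set of these genes passed in these 3 comparisons, beside 0% of all for myclobutanil and propiconazole and 0.00322% for triadimefon. At an unadjusted p under 0.05, 2 of 12 passed for myclobutanil (7.55% of all), and none for propiconazole (3.83%) or triadimefon (1.97%). The dimmest Pgk1 probe set, 1368906_at, was one of these 2, at 0.0828 (SE 0.0239, unadjusted p = 0.00178 and limma adjusted p = 0.365) from M500 to M2000. Its M500 and M2000 arrays did not overlap, but the share of all probe sets without overlap was not counted for this comparison. The other was Aldoa, at 0.131 (95% interval 0.00166 to 0.260, unadjusted p = 0.0473 and limma adjusted p = 0.657) from M500 to M2000. Ldhc changed by 0.0191 (95% interval -0.0771 to 0.115) for myclobutanil, -0.00283 (95% interval -0.0912 to 0.0855) for propiconazole and -0.0439 (95% interval -0.137 to 0.0492) for triadimefon.

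The germ cell forms were set against the general forms within each array, as the mean of Ldhc, Gapdhs and Pgam2 minus the mean of the 6 general genes, each gene first centred on its Control mean. This is a description over chosen genes and was not tested. Control arrays ran from -0.149 through a median of 0.0300 to 0.0934. T500 had the highest mean, 0.0933 ± 0.0209 (SD, n = 4), with arrays from 0.0688 to 0.120, all above 0. M500 had a mean of 0.0585 ± 0.0864 (SD, n = 3), with all 3 arrays above 0, and P500 one of 0.0455 ± 0.0988 (SD, n = 4). T1800 had a mean of 0.0274 ± 0.0467 (SD, n = 4). P2500 had a mean of 0.0224 ± 0.0250 (SD, n = 5), and its 5 arrays were above 0. M2000 had a mean of 0.0173 ± 0.0861 (SD, n = 5). Every group overlapped Control, and the 2 lowest values of Control, -0.149 and -0.0603, were those of its 2 arrays with large actin gaps. Without the 5 arrays of large gap the T500 mean was 0.0410 and the M500 mean 0.0322 above Control, and P500, P2500, T1800 and M2000 were below Control by -0.00683, -0.0246, -0.0250 and -0.00300. On the deposited scores the order of the groups changed, with M500 at 0.408, T500 at 0.0512 and the other 4 below 0.

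**Figure D5:**
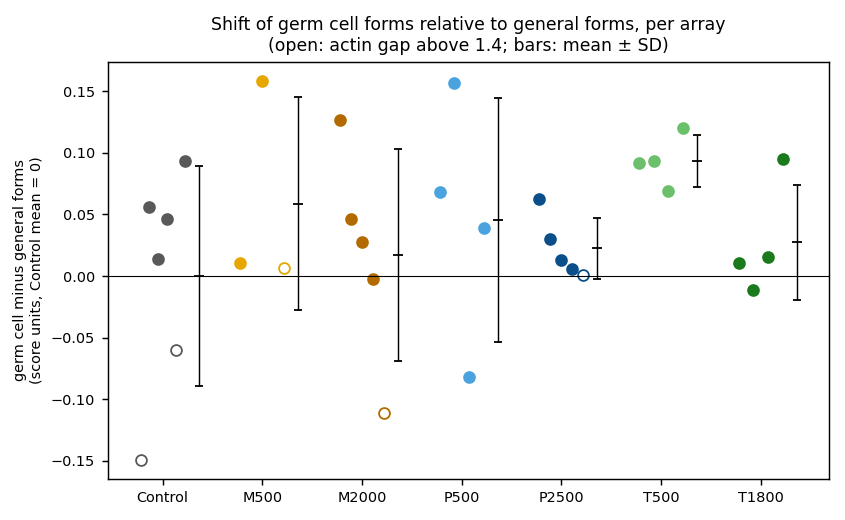
Mean shift of the germ cell forms minus that of the general forms in each array (vertical axis, score units, Control mean 0), by group, with open points for arrays of actin gap above 1.4 and bars for the mean ± SD. The 4 T500 points lie between 0.0688 and 0.120 and the lowest Control point at -0.149.

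The split by pair gave the same picture of overlap. The Ldhc shift minus the Ldha shift averaged -0.0881 ± 0.146 (SD, n = 4) in P500 and 0.0944 ± 0.167 (SD, n = 3) in M500, where Control had an SD of 0.202. The Pgam2 shift minus the Pgam1 shift averaged 0.247 ± 0.0550 (SD, n = 4) in T500 and 0.216 ± 0.0612 (SD, n = 4) in T1800. Control ran from -0.667 to 0.321 on this measure, and so covered both triadimefon groups. The low Control values are those of the arrays of large actin gap. Without the 5 such arrays, T500 lay below Control by -0.0378 and T1800 by -0.0690, and the 4 remaining Control arrays ran from -0.0346 to 0.0357.

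Across the 31 arrays, with group means removed, the 3 germ cell forms did not vary as one set. Pearson's r between Ldhc and Gapdhs was 0.0583, between Ldhc and Pgam2 -0.0862 and between Gapdhs and Pgam2 -0.447. The last was -0.142 over the 26 arrays without large actin gaps. Pgam2 and Pgam1 had an r of -0.888, which was -0.700 over the 26. Pgk1 and Pgam1 had an r of 0.802 (0.626 over the 26), and Hk1 and Aldoa one of 0.691 (0.727 over the 26). The arrays were normalised together and differed in actin gap, so these are descriptions.

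The genes whose group-centred scores were most like those of a member were taken among 14216 others. For Ldhc they were Ndufaf7 (r = 0.821), Skic8 (0.779), Gmnn (0.760), Ebna1bp2 (0.748) and Atp5f1c (0.729). Over the 26 arrays without large gaps these r lay between 0.716 and 0.845. For Gapdhs they were Mbd1 (r = 0.900), Eif2b4 (0.854), Strada (0.853), Desi1 (0.853) and Wdr46 (0.852), which lay between 0.790 and 0.853 over the 26. For Ldha they were Fmo5 (r = 0.754), Alb (0.722), Lypd8 (0.692), Gla (0.689) and Gdpd1 (0.679), and over the 26 these ran from 0.50 for Gdpd1 to 0.763 for Gla. Alb encodes the liver protein albumin, and its scores ran from -0.124 to 4.15.

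The rest of the pathway showed no adjusted call either. Of 25 other glycolysis genes listed, 19 were measured and 0 passed in the 6 comparisons with Control. Their median difference ran from -0.0371 in M500, where 6 of 19 were above 0, to 0.00710 in P500, where 10 of 19 were. Over all 14217 genes the median was 0.00272 in M500, with 52.1% above 0, and 0.00606 in P500, with 57.3% above 0. Unadjusted p-values under 0.05 were found for 2 of 19 genes, lower, in M500 and in P2500, where 9% and 4.15% of all probe sets reached that level. They were found for 1 of 19, lower, in M2000 (1.7% of all) and T500 (7.62%), and for 1 of 19, higher, in P500 (3.36%) and T1800 (5.84%). Ldhal6b, a further testis lactate dehydrogenase, differed by -0.148 (SE 0.0518, unadjusted p = 0.00819 and limma adjusted p = 0.577) in P2500. Pfkfb4, whose product sets the fructose-2,6-bisphosphate that controls phosphofructokinase, differed by -0.210 (SE 0.0891) in M500, -0.167 (SE 0.0763) in M2000 and -0.165 (SE 0.0763) in P2500. Aldoc, a further aldolase, differed by 0.148 (SE 0.0524, unadjusted p = 0.00890 and limma adjusted p = 0.767) in T1800.

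All 19 genes listed for sugar and lactate transport and for pyruvate entry into mitochondria were measured, and 0 passed. An unadjusted p under 0.05 was reached by 1 of the 19 in M500 (9% of all probe sets) and M2000 (1.7%). It was reached by 2 of the 19 in P500 (3.36%), P2500 (4.15%), T500 (7.62%) and T1800 (5.84%). Slc2a3, a glucose transporter of germ cells, differed by -0.189 (SE 0.0774, unadjusted p = 0.0216 by limma) in M500 and -0.166 (SE 0.0706, unadjusted p = 0.0267 by limma) in T500. Its difference in T1800, -0.140 (SE 0.0706, unadjusted p = 0.0573 by limma), did not reach 0.05. Pdha2, the germ cell form of a pyruvate dehydrogenase subunit, differed by 0.215 (SE 0.0853) in T1800, 0.187 (SE 0.0853) in P500 and 0.183 (SE 0.0853) in T500. Pdk3, a kinase that inhibits pyruvate dehydrogenase, differed by 0.136 (SE 0.0438, unadjusted p = 0.00440 and limma adjusted p = 1) in P500 and 0.127 (SE 0.0438) in T1800. The liver glucose transporter Slc2a2 differed by 0.145 (SE 0.0379, unadjusted p = 0.000718 and limma adjusted p = 0.119) in P2500, the group with high liver markers.

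The tissue label was checked against germ cell markers. Of 10 spermatid genes 9 were measured, and their mean score was 3.75 ± 0.159 (SD, n = 6) in Control, 3.85 ± 0.0167 (SD, n = 4) in T500 and 3.85 ± 0.00710 (SD, n = 4) in T1800. The mean spermatid score was 3.80 in M500, M2000 and P2500 and 3.81 in P500. The lowest Control array was at 3.50. Neither triadimefon group held an array of large actin gap, while Control did. The 6 of 8 spermatocyte genes measured had a mean score of 1.87 ± 0.127 (SD, n = 6) in Control and 1.78 ± 0.0471 (SD, n = 4) in T500. No gene of either list passed in any comparison with Control by limma. Without adjustment, a p under 0.05 was reached by 1 of 9 spermatid genes, higher in T500, and 1 of 6 spermatocyte genes, lower in M500, where 7.62% and 9% of all probe sets reached it. Among somatic cells, 0 genes passed after adjustment. In M500, 0 of the 5 Sertoli genes measured and 0 of the 4 peritubular genes were above Control, with a p under 0.05 for 2 of each. All 6 Leydig genes were above Control in M500 and in P2500, with a p under 0.05 for 0 and 2 of them, beside 9% and 4.15% of all probe sets. Of the Leydig genes 2 reached it in T500 (7.62% of all probe sets) and 3 in T1800 (5.84% of all), all higher. Other lists also held such genes in these groups. Of the 5 macrophage genes 3 reached it in T1800, all higher, and in T500 1 was higher and 1 lower. Of the 3 erythrocyte genes measured, 1 reached it in T500 and 1 in T1800, each higher. Of the 4 peritubular genes, 1 higher and 1 lower reached it in T500, and 1 higher in T1800. The part of these cell types in the values of both kinds of form was not tested.

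Array medians of the deposited scores lay between -0.00914 and 0.0558, and their maxima between 3.88 and 8.39, so that the gain of the arrays was unequal. The number of arrays per group limits the precision, and the half-width of the 95% interval of a difference among these probe sets ran from 0.0406 to 0.258 score units. Animal numbers fell into an earlier and a later series, the later holding 3 Control and 3 T1800 arrays. Within the later series Ldhc scored 3.91 ± 0.0136 (SD, n = 3) in T1800 and 3.86 ± 0.0576 (SD, n = 3) in Control, and Pgam2 scored 2.54 ± 0.0679 (SD, n = 3) and 2.40 ± 0.288 (SD, n = 3). These Control arrays include replicate 06, of large actin gap, which scored 3.79 for Ldhc and 2.07 for Pgam2. Replicates 05 and 07 each scored 3.89 for Ldhc, and they scored 2.56 and 2.58 for Pgam2.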

How the data were processed

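Testis RNA of 31 rats in 7 groups was analysed, 1 array per animal. Groups and replicates came from the labels. Total RNA (TRI Reagent, DNase, RNeasy) was copied from oligo-dT primers, per the labels' protocols. The authors deposited 1 score for each probe set; it is log-like and centred near 0 on every array. How probes were summarised and background corrected, and the base, are not stated there. The members and gene lists were chosen with earlier results of these data known.

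The 31099 probe sets were quantile normalised with limma 3.58.1 in R 4.3.3, since the arrays had unequal gain, and 57 control probe sets were left out of the tests. A further fit that included them served only for the Hk1 control probe sets and as an alternative. A model of 1 mean for each group was fitted to 31042 probe sets with equal weights (lmFit, eBayes), and 12 comparisons and an F test were made. Benjamini-Hochberg adjustment ran over all probe sets of a comparison, with 0.05 as the threshold. The fit was also run on simulated data.

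The platform annotation of 2016 gave 20826 probe sets 1 symbol, 436 several and 9780 none. Where a gene had several probe sets, that of highest mean represented it. All probe sets of the chosen genes were named, with the 5 genes most like Ldhc, Gapdhs and Ldha, and up to 4 genes of smallest p per list. The actin gap was the 3′ minus the 5′ beta-actin control score. Promoters came from RefSeq (GRCr8) by symbol. Alternatives were other scalings, a filter on dim probe sets, fewer groups in the fit, blocks, the actin gap, array weights, and leaving out arrays.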

Additional observations from a re-analysis of the deposited data

Results flagged for a closer look

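In groups of 4 to 10 arrays, the highest or lowest value was compared with its nearest neighbour by Dixon's test. Over 96 sets of values 11 stood apart, and chance gives about 1 in 20. M2000 replicate 05, an array of large actin gap, stood apart for Ldhc (4.12, nearest other value 3.93), Ldha (3.37, nearest 3.11), Pgam2 (2.08, nearest 2.43) and the middle control probe set of Hk1 (0.821, nearest 1.45). P2500 replicate 05, also of large gap, stood apart for Pgam2 (2.06, nearest 2.45) and Aldoa (2.58, nearest 2.78). Control replicate 02, likewise of large gap, stood apart for the brightest Pgk1 probe set (1.13, nearest 0.893). The other values were in arrays without large gaps. These were 2.95 for Ldha in T1800 replicate 05 (nearest 3.17) and 0.851 for Pgk1 probe set 1387361_s_at in T500 replicate 03 (nearest 0.765). They also included 0.817 for the brightest Pgk1 probe set in P2500 replicate 01 (nearest 0.931) and 1.62 for the middle control probe set of Hk1 in P500 replicate 01 (nearest 1.12).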

How the results depend on the processing

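The count of 0 calls among the 12 probe sets was the same under the alternatives tried, save array weights. With those, limma called 2 in P2500 (smallest adjusted p = 0.0111), both Pgk1 (1387361_s_at at 0.104 and 1388318_at at 0.132). It also called 2 in the F test. Over all probe sets, array weights gave from 0 to 882 calls in the 12 comparisons. The share of all probe sets called is not given here for P2500 alone or for the F test. These counts of 2 therefore cannot be set against it. The count among the 12 probe sets was 0 with each array left out and with the replicate block. Same-numbered arrays had correlations of deviations from -0.768 to 0.775, and 7 of 31 arrays correlated best with their own number, so the numbers were not taken as pairs. Of 2904 alternative values of member differences, 410 had the other sign. With scores as deposited, the germ cell forms minus general forms were 0.408 in M500, -0.143 in M2000, -0.109 in P500, -0.0898 in P2500 and -0.0922 in T1800. With arrays scaled to a common median and spread, they were 0.447, -0.139, -0.0945, -0.0872 and -0.100. T500 stayed positive under both (0.0512 and 0.0636). The cause of these changes was not tested. Leaving out each array in turn gave 0.00865 to 0.0846 in M500, -0.0125 to 0.0493 in M2000, 0.00838 to 0.0881 in P500, -0.00743 to 0.0411 in P2500, 0.0635 to 0.112 in T500 and -0.00246 to 0.0460 in T1800. Over all probe sets, calls per comparison were 0 to 2 as reported and reached 882 with array weights, 676 without the 5 arrays of large actin gap, 231 with the gap as a covariate, 15 with the common spread and 7 with the deposited scores. The number of arrays limits what could be detected, and the Pgk1 probe set 1368906_at lay near the floor of signal.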
